A study of Mus musculus with 9 samples.

Results

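The genes described here are 10 mouse genes of the cornified envelope and the squamous barrier, namely Ivl, Sprr1a, Sprr3, Lor, Cnfn, Sbsn, Krtdap, Dsg3, Dsg1a and Rptn. Their rows were found by symbol, and all 10 were present among 34619 genes with a unique symbol. Their expression was measured by sequencing of mRNA from the uterus of wild-type females of CD-1 (ICR), an outbred mouse stock, bought at 7 to 8 weeks of age and housed for 1 week before dosing on a feed free of estrogens. One group received bisphenol B (BPB), another bisphenol AF (BPAF), both at a daily dose of 300 µg per kg body weight, and the control group received corn oil alone; all were dosed by gavage for 28 days, and each group has 3 libraries. BPB carries a methyl and an ethyl group on the carbon that joins its phenol rings, where BPAF carries trifluoromethyl groups. The labels are silent on estrous stage and on the limits of the dissection, and they do not say whether the libraries of a group came from separate mice, so that p-values measure the spread between libraries, which may be technical.

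The cornified envelope is a sheet of cross-linked protein that replaces the plasma membrane of dying squamous cells in skin, mouth, esophagus and vagina. Involucrin is laid down early as a scaffold, small proline-rich proteins and loricrin are joined to it by transglutaminases, and desmosomes hold neighbouring cells together until proteases release them at the surface. The uterus is normally lined by a simple columnar epithelium that does not cornify, and estrogen is known to raise several genes of the Sprr2 family there. Several of the same genes are also used outside cornifying tissue, and involucrin and small proline-rich proteins are known from other stratified linings.

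Only Ivl and Sprr1a, early or inducible envelope precursors, were abundant, and they were abundant in the same 4 libraries, namely all 3 of BPB and the first of BPAF. These 4 libraries had the highest summed level of the set: the FPKM of the 10 genes summed to 533, 768 and 750 in BPB, to 385, 17.3 and 4.13 in BPAF, and to 31.9, 13.5 and 31.4 in control. FPKM are fragment counts scaled to transcript length and to the size of the library, as the authors deposited them. Ivl and Sprr1a together made up 99.3, 99.5 and 99.4% of that sum in BPB. The genes that mark completed cornification were low everywhere. Of the 10 genes, 3 (Ivl, Sprr1a and Rptn) were higher in BPB than in control without overlap, as were 16.4% of all 23431 genes above 0 in some library. Of the 10 genes, 5 (Sprr3, Lor, Cnfn, Dsg1a and Rptn) stayed under 1 FPKM in all 9 libraries, and Dsg3 reached 1 FPKM in a single library. The 10 genes therefore had no common pattern over the libraries.

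**Figure D1:**
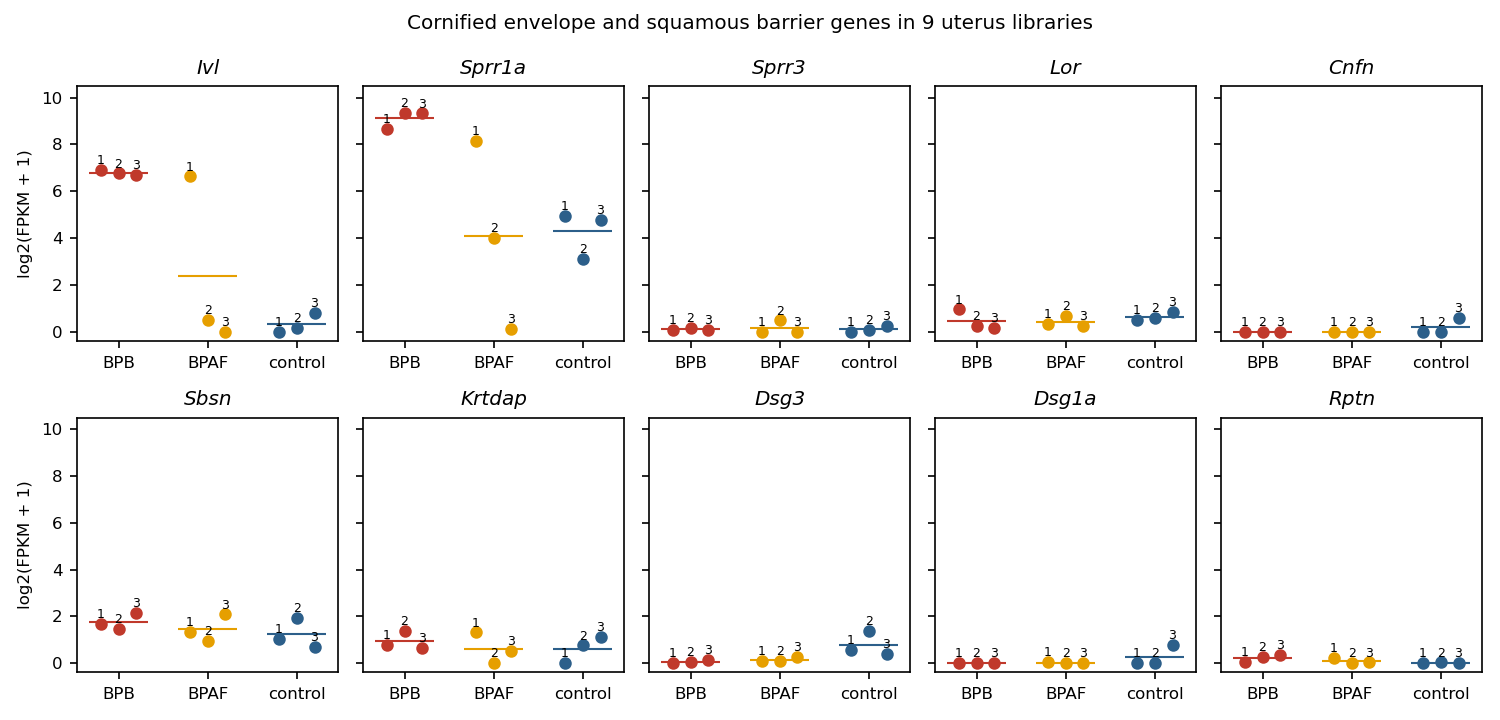
Level of each of the 10 genes as log2(FPKM + 1) in the 3 libraries of BPB, BPAF and control (points, numbered by replicate; lines, group means). Ivl and Sprr1a are high in BPB 1 to 3 and BPAF 1, and the other 8 genes lie near 0 or a little above it in every group.

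The libraries rested on 12620195 to 15616777 reads, a total recovered from the step between the lowest values of genes with a single transcript, and held 11614 to 13105 genes at 1 FPKM or more. The third control had the fewest reads and genes and stood apart for some squamous genes. Its FPKM summed to 495778 over all genes with a unique symbol, beside 279547 to 391700 in the other libraries. Its factor in scaling by median ratios was 0.7246, beside 0.9206 to 1.121. Its FPKM are thus less comparable with those of the other libraries. Of 60 member and pathway genes that reached 1 FPKM control 3 was the highest of the 9 libraries for 11. BPB 2 was the highest for 13 and control 1 for 10, so that count was not particular to control 3. For 6 of the 11, Krt14, Krt6a, Krt6b, Krt13, Krt16 and Spink5, control 3 was more than 2 times the next library. Any other library was so for at most 2 genes. Krt14, a keratin of basal cells, had 103 FPKM in control 3 and at most 1.60 FPKM in the other 8 libraries.

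The 300 bases around the start of 4 of the genes are shown to set the abundant Ivl and Sprr1a beside Lor and Sprr3, which lie in the same gene cluster and were near 0. The sequences are from RefSeq on GRCm38.p6, run from 250 bases before the start to 50 after it, and all 4 are read 5′ to 3′ on the minus strand. Capitals mark matches to TGANTCA, the core of the binding motif of AP-1, a transcription factor known to act on involucrin and Sprr promoters in keratinocytes. The Ivl promoter lies at chr3:92573686-92573985, that of Sprr1a at chr3:92485832-92486131, that of Lor at chr3:92083093-92083392 and that of Sprr3 at chr3:92458671-92458970.
Ivl: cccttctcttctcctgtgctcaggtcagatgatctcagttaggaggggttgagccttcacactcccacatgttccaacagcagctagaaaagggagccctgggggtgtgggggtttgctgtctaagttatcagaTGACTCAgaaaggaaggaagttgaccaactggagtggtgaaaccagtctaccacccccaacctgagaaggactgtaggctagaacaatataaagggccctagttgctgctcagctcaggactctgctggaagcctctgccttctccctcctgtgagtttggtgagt
Sprr1a: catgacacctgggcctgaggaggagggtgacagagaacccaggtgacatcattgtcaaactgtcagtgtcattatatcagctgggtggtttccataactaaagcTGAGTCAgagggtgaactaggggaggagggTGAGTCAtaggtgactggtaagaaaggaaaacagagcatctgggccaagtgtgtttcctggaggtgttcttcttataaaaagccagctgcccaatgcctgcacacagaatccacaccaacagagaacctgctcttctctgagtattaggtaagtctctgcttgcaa
Lor: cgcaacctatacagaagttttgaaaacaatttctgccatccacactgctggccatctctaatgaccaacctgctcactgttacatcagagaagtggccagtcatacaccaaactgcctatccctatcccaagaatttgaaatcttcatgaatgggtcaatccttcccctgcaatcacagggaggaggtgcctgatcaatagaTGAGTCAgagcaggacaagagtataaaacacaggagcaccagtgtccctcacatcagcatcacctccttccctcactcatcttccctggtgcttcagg
Sprr3: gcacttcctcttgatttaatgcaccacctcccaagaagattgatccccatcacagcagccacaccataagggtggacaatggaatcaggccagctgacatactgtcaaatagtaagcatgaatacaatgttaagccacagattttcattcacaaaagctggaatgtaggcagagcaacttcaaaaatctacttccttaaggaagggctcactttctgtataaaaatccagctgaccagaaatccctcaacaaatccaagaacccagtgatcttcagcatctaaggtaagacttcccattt

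Ivl held 1 match and Sprr1a 2, and in both genes a match covered positions -116 to -110, counted with the start base as 0. Lor held 1 match at -48 to -42, and Sprr3 held none. Promoters were found for 8 of the 10 genes, and 6 of these held the motif on either strand (Ivl, Sprr1a, Lor, Sbsn, Krtdap and Rptn), against 7.81% of 32851 mouse promoters of the same length. Lor and Rptn held it and stayed under 1 FPKM. The palindrome AACCGGTT, bound by grainyhead-like factors, was in none of the 8 and in 0.146% of all promoters. The estrogen response element, GGTCA and TGACC separated by 3 bases of any kind, was likewise in none of the 8 and in 0.07% of all promoters.

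Ivl encodes involucrin, the scaffold on which the envelope is built. It had 120, 107 and 104 FPKM in BPB 1 to 3, against 98.3, 0.428 and 0 FPKM in BPAF 1 to 3 and 0, 0.113 and 0.742 FPKM in control 1 to 3. The BPB libraries lay close together, a single BPAF library reached their range, and the other BPAF libraries lay among the controls. In reads these values stand for 3378, 3224 and 2668 in BPB, 2422, 12 and 0 in BPAF, and 0, 3 and 18 in control. Where a library had 0 reads, the limit that 3 reads allow was 0.117 FPKM in BPAF 3 and 0.103 FPKM in control 1, for counting error only. Ivl averaged 110.4 ± 8.85 FPKM in BPB, 32.9 ± 56.6 FPKM in BPAF and 0.285 ± 0.3999 FPKM in control (SD, n = 3 each).

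Against control, Ivl rose in BPB by 6.48 on the log2(FPKM + 1) scale (SE 1.41, 95% interval 3.31 to 9.65), with an adjusted p of 0.0489 in limma, just under the threshold of 0.05. It was the 1 gene called among the 4 of the 10 that reached the level for testing, 1 FPKM in at least 3 libraries, which Ivl reached in BPB and BPAF 1 only. Among all 13743 genes tested, 2.05% were called higher in BPB, 0.502% lower and 2.55% in either direction. The call was lost when any single BPB or control library was left out, with an adjusted p of 0.103 to 0.187 in limma, although the difference stayed between 6.32 and 6.72, and also with no filter on low values (adjusted p = 0.0903 in limma). In bulk RNA, more cells of a type and more RNA per cell cannot be told apart. Every BPB library lay above every control library.

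Sprr1a encodes a small proline-rich protein that is cross-linked into the envelope and is known to be induced by stress and injury in several epithelia. It had 409, 657 and 642 FPKM in BPB 1 to 3, against 283, 14.96 and 0.0928 FPKM in BPAF 1 to 3 and 30.02, 7.70 and 26.4 FPKM in control 1 to 3. As with Ivl, BPAF 1 stood near the BPB libraries, but here the controls held clear signal, at 365, 86 and 268 reads, and BPAF 3 with 1 read lay below all of them. Sprr1a averaged 569 ± 139 FPKM in BPB, 99.5 ± 159 FPKM in BPAF and 21.4 ± 12.0 FPKM in control (SD, n = 3 each). Its difference between BPB and control was 4.84 on the log2(FPKM + 1) scale (95% interval 1.30 to 8.39) with an adjusted p of 0.154 in limma, so it was not called, although the groups did not overlap. The spread it was tested against includes that of BPAF: with only the 6 BPB and control libraries in limma the adjusted p was 0.00423, without BPAF 1 it was 0.0276 and without BPAF 3 it was 0.0435. With any other single library left out it was 0.174 to 0.387, and with no filter 0.227.

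Within the libraries that held both genes at high levels, the ratio of Sprr1a to Ivl on the FPKM scale was 3.40, 6.11 and 6.21 in BPB 1 to 3, and 2.88 in BPAF 1. Ivl thus varied little across these 4 libraries, at 98.3 to 120 FPKM, and Sprr1a varied more, at 283 to 657 FPKM.

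In BPAF against control, neither gene was called, and 0 of the 10 genes were called in all. Among all genes tested 0.0218% were called in that comparison, and 1757 had an unadjusted p under 0.05. Ivl differed by 2.06 on the log2(FPKM + 1) scale (95% interval -1.11 to 5.24, adjusted p = 0.554 in limma), and without BPAF 1 by -0.06. Sprr1a differed by -0.19 (95% interval -3.74 to 3.36, adjusted p = 0.972 in limma), and by -2.22 without BPAF 1. The BPAF means of both genes are set by its first library, and the intervals span both directions.

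The pair of bisphenols, compared at the same dose and time, gave no call for the 10 genes either, where 0.24% of all genes were called, all lower in BPAF, and 927 had an unadjusted p under 0.05. Ivl differed by -4.42 on the log2(FPKM + 1) scale in BPAF against BPB (95% interval -7.59 to -1.24, adjusted p = 0.427 in limma). Sprr1a differed by -5.03 (95% interval -8.58 to -1.49, adjusted p = 0.407 in limma). Every BPAF library lay below every BPB library for both genes, as for 5.73% of all genes above 0 in some library, but for Ivl the nearest values were 98.3 FPKM in BPAF 1 and 104 FPKM in BPB 3. Without BPAF 1 the differences were -6.54 for Ivl and -7.06 for Sprr1a, with adjusted p of 8.05e-05 and 0.0112 in limma. BPAF 1 stands apart by the same values that are tested, so leaving it out cannot test the difference between the bisphenols. The comparison thus turns on whether the first BPAF library is kept.

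**Figure D2:**
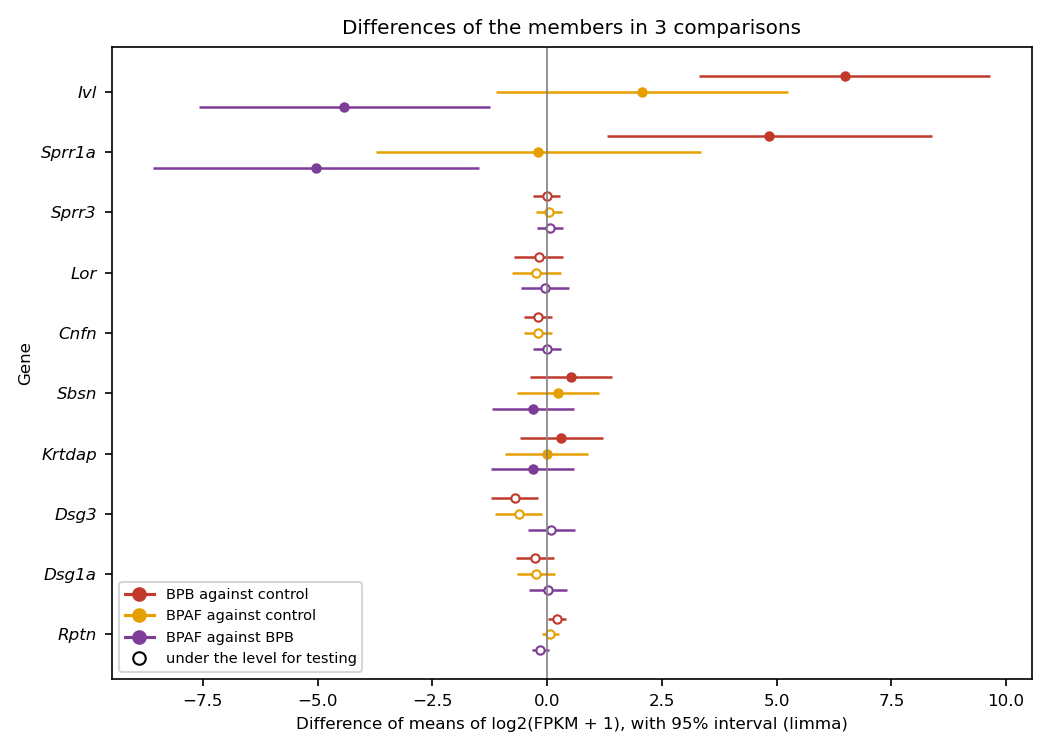
Difference of each gene in BPB against control, BPAF against control and BPAF against BPB as the difference of mean log2(FPKM + 1) with its 95% interval from limma; open points mark genes under the level for testing, with intervals from the fit without a filter. The intervals of Ivl and Sprr1a are the widest, lie above 0 in BPB against control, span 0 in BPAF against control and lie below 0 in BPAF against BPB.

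Sbsn and Krtdap encode suprabasin and keratinocyte differentiation-associated protein, secreted products of differentiating keratinocytes, and both passed the level for testing at low values. Sbsn had 2.17, 1.74 and 3.41 FPKM in BPB, 1.52, 0.923 and 3.23 FPKM in BPAF, and 1.03, 2.85 and 0.629 FPKM in control. Krtdap had 0.695, 1.58 and 0.567 FPKM in BPB, 1.48, 0 and 0.427 FPKM in BPAF, and 0, 0.686 and 1.16 FPKM in control. For both genes the 3 groups overlapped. The differences between BPB and control were 0.53 for Sbsn and 0.31 for Krtdap on the log2(FPKM + 1) scale, with adjusted p of 0.551 and 0.765 in limma, and those between BPAF and control were 0.23 and -0.01. Neither gene followed the 4 libraries with high Ivl: BPAF 3 was the second highest library for Sbsn, and control 3 lay above BPB 1 and BPB 3 for Krtdap.

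The late envelope genes were low, with no library at 1 FPKM or more. Lor encodes loricrin, the main protein of the mature envelope of the epidermis. It had 0.924, 0.180 and 0.126 FPKM in BPB, 0.263, 0.578 and 0.168 FPKM in BPAF, and 0.410, 0.487 and 0.802 FPKM in control, which are 3 to 24 reads per library. The groups overlapped, and the library highest in Ivl had 24 reads of Lor beside 3378 of Ivl. Sprr3, a small proline-rich gene of internal squamous linings such as the esophagus, had 0 to 7 reads per library, with its highest value of 0.392 FPKM in BPAF 2. Cnfn, which encodes the envelope protein cornifelin, was listed at 0 in all 3 BPB libraries, all 3 BPAF libraries and 2 controls, and at 0.488 FPKM in control 3.

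Rptn encodes repetin, a calcium-binding envelope precursor. It had 2, 13 and 16 reads in BPB, 8, 0 and 1 in BPAF, and 0, 1 and 0 in control, at most 0.288 FPKM. The BPB libraries lay above the controls without overlap. Rptn was under the level for testing, and in limma without that level its unadjusted p was 0.0302 and its adjusted p 0.278.

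The desmosomal cadherins of squamous cells were highest in control. Dsg3 encodes desmoglein 3, the adhesion molecule of basal and mucosal squamous cells. It had 0, 0.0312 and 0.0908 FPKM in BPB, 0.0570, 0.0667 and 0.2002 FPKM in BPAF, and 0.468, 1.56 and 0.309 FPKM in control. All 3 controls lay above all 6 exposed libraries; over all genes above 0, 4.8% lay lower without overlap in BPB and 2.27% in BPAF. Dsg3 was under the level for testing, and in limma without that level the adjusted p was 0.196 for BPB and 0.442 for BPAF against control. Dsg1a, which encodes a desmoglein 1 of the upper squamous layers, had 52 reads in control 3 (0.725 FPKM), 2 reads in BPAF 1 and 0 in the other 7 libraries. Mouse has close copies of this gene, so that its reads are uncertain. Control 3 was also the library with Cnfn and with the highest Krt14, Krt6a, Krt6b and Krt16.

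Of the 10 genes, Ivl, Sprr1a, Sprr3, Lor and Rptn belong to the epidermal differentiation complex, a cluster of envelope genes on chromosome 3. From Lor to Rptn the RefSeq order holds 49 protein-coding genes, of which 48 were in the files. Of these, 29 were listed at 0 in all libraries and 37 stayed under 1 FPKM. Another 4 reached 1 but not 10 FPKM, and 7 reached 10 FPKM somewhere: Sprr1a, Ivl, Sprr2a2, Sprr2a3, Sprr2b, Sprr2d and Sprr2f. Ivl and Sprr1a are separated by a single gene, Sprr4, which was at 0 throughout.

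The Sprr2 genes a short way along the cluster, known in the uterus as estrogen-raised genes, had patterns that differed from gene to gene. Sprr2f had 283, 250 and 6.37 FPKM in BPB, 584, 927 and 4.05 FPKM in BPAF, and 3925, 2489 and 2569 FPKM in control. Sprr2b had 7.69, 0.898 and 0.285 FPKM in BPB, 5.97, 13.4 and 0 FPKM in BPAF, and 112, 175 and 88.2 FPKM in control. For Sprr2f and Sprr2b all controls lay above all exposed libraries. Sprr2a3 had 124.6, 78.99 and 175.1 FPKM in BPB, 60.9, 20.9 and 0 FPKM in BPAF, and 214.4, 29.7 and 95.2 FPKM in control, so that its BPB and control groups overlapped. Sprr2a2 was higher in BPB 2, BPB 3 and BPAF 1, at 50.1, 70.1 and 34.7 FPKM, than in the other libraries, where it had at most 1.53 FPKM. The Sprr2 genes are close copies of each other, so that the split of reads between them is uncertain.

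**Figure D3:**
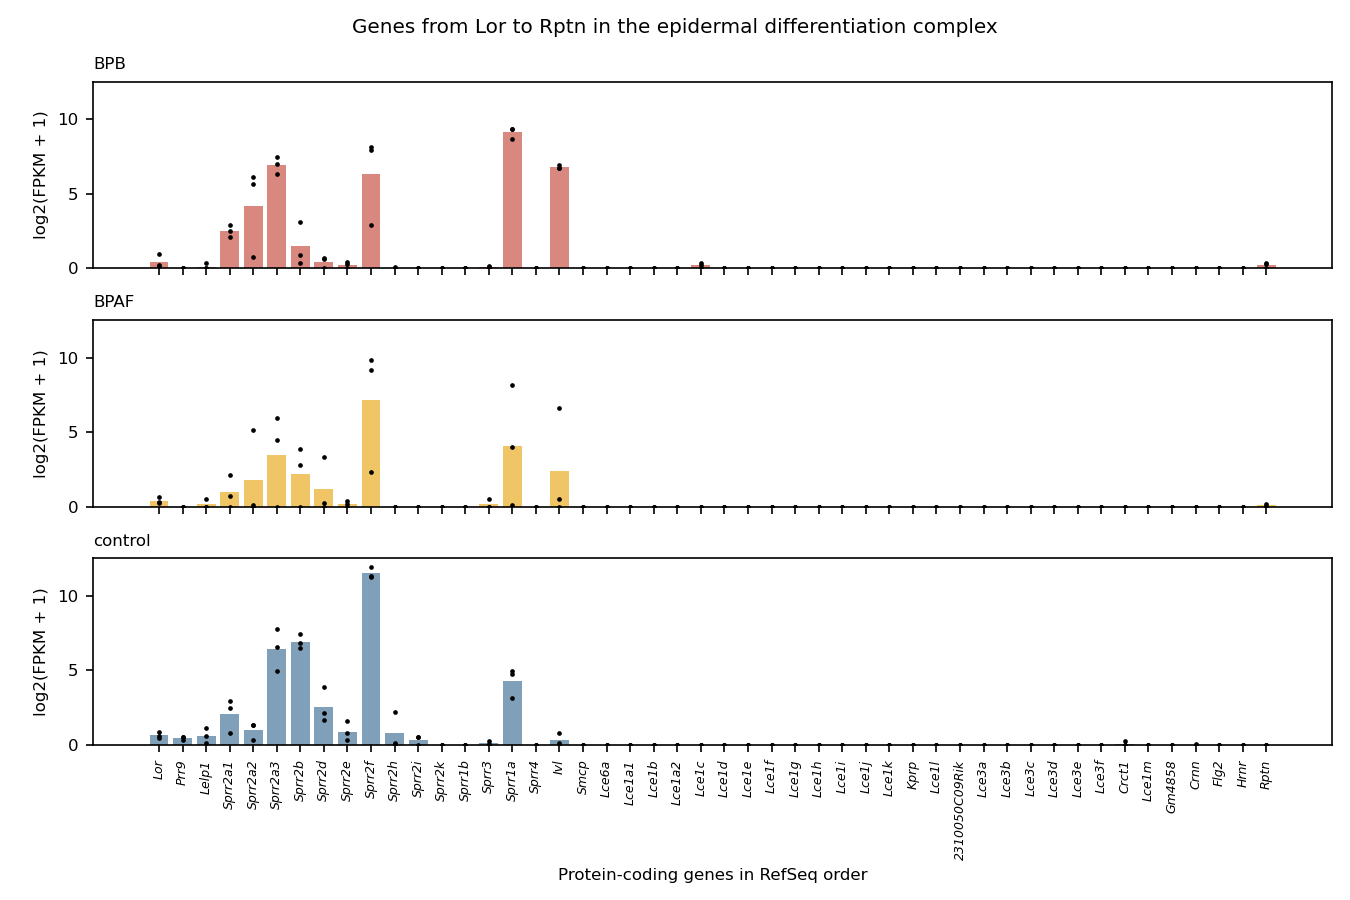
Level of the protein-coding genes from Lor to Rptn in RefSeq order as log2(FPKM + 1), with bars for the mean and points for the 3 libraries of BPB, BPAF and control. Most genes are at 0, the bars of Sprr1a and Ivl are tallest in BPB, those of Sprr2b and Sprr2f in control, and Sprr2a3 is high in both.

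In BPB against control 4 squamous regulators, 2 keratins and 1 lipid enzyme rose, and 1 cross-linking enzyme and 2 surface proteases fell. For these counts and those of each list below, 2.05% of all genes tested were called higher and 0.502% lower. Of 14 transcription factors of squamous and barrier epithelia 13 were tested and 4 rose in BPB against control, with 0 lower; the median log2 difference of the 13 was 0.789, beside 0.151 over all genes. The other 9 were not called, among them Klf4 and Elf3 with log2 differences of -1.73 and -1.84 (adjusted p of 0.297 and 0.3 in limma). Trp63, the master regulator of stratified epithelia, averaged 6.75 ± 2.55 FPKM in BPB, 1.17 ± 1.83 FPKM in BPAF and 0.193 ± 0.210 FPKM in control (adjusted p = 0.0352 in limma for BPB against control). Grhl3, a grainyhead-like factor needed for the skin barrier and for terminal differentiation of the urothelium, averaged 25.1 ± 9.62 FPKM in BPB, 4.28 ± 6.70 FPKM in BPAF and 0.858 ± 0.826 FPKM in control (adjusted p = 0.0481 in limma). Zfp750, a target of p63 that drives differentiation, averaged 6.91 ± 2.38 FPKM in BPB, 1.41 ± 1.34 FPKM in BPAF and 0.317 ± 0.263 FPKM in control (adjusted p = 0.0226 in limma). Sox15 had 4.06, 9.67 and 9.61 FPKM in BPB and 5.07 FPKM in BPAF 1, and 0 in the other 5 libraries (adjusted p = 0.0447 in limma).

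Of 14 squamous and basal keratins 7 were tested and 2 rose in BPB, with 0 lower; the median log2 difference was 0.18. Krt4, a keratin of internal stratified linings, had 21.3, 36.7 and 28.0 FPKM in BPB, 8.89, 0.0643 and 0.0351 FPKM in BPAF, and 0.0622, 0.305 and 0.335 FPKM in control, with an adjusted p of 0.0234 in limma for BPB against control. Krt15, a keratin of basal cells, had 159, 205 and 281 FPKM in BPB, 93.2, 1.24 and 0 FPKM in BPAF, and 0.0316, 0.0687 and 4.26 FPKM in control, with an adjusted p of 0.0443 in limma. Both follow the libraries with high Ivl. Krt5, another basal keratin, was as high in those libraries, at 131, 179 and 283 FPKM in BPB and 95.8 FPKM in BPAF 1, but also had 71.9 FPKM in control 3 and was not called (adjusted p = 0.188 in limma). Other keratins of the list had other patterns. Krt13 and Krt6a, of suprabasal and proliferating squamous cells, had 28.1 and 25.9 FPKM in control 3 and at most 1.56 and 0.456 FPKM in BPB. Krt78, of differentiated squamous cells, had 0.738, 1.34 and 1.87 FPKM in BPB and 0.431 FPKM in BPAF 1, at most 0.0692 FPKM in the other 5 libraries, and was under the level for testing (adjusted p = 0.0581 in limma without that level). Krt6a and Krt6b are close copies, so that their split is uncertain.

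Of 23 envelope precursors and cross-linkers 6 were tested, 0 rose and 1 fell in BPB, and the median log2 difference was 0.448. Tgm1, a transglutaminase that cross-links the envelope, was the gene that fell: it had 0.440, 0.288 and 0.575 FPKM in BPB, 0.651, 0.418 and 0.481 FPKM in BPAF, and 1.87, 2.23 and 1.76 FPKM in control, an adjusted p of 0.0364 in limma for BPB. All 3 controls lay above all 6 exposed libraries. Ppl, the envelope plakin periplakin, averaged 20.6 ± 7.06 FPKM in BPB, 11.4 ± 4.74 FPKM in BPAF and 5.59 ± 3.02 FPKM in control, with an adjusted p of 0.0575 in limma. Of 16 proteases and inhibitors of desquamation 7 were tested, 0 rose and 2 fell, with a median log2 difference of -1.28. Tmprss11d, a membrane serine protease of airway and other epithelia, averaged 0.422 ± 0.730 FPKM in BPB, 1.78 ± 1.84 FPKM in BPAF and 24.4 ± 11.03 FPKM in control (adjusted p = 0.0183 in limma). Its relative Tmprss11e averaged 0.294 ± 0.265 FPKM in BPB, 0.293 ± 0.372 FPKM in BPAF and 5.24 ± 3.35 FPKM in control (adjusted p = 0.0489 in limma). Tgm1 and Tmprss11e reached 1 FPKM in the 3 controls alone and so entered the test only through the group in which they were high. Of the genes that rose, Krt4, Trp63 and Sox15 reached 1 FPKM in BPB and BPAF 1 only, as Ivl did.

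Of 12 enzymes of barrier lipids 5 were tested, 1 rose and 0 fell, with a median log2 difference of 1.03. It was Cers3, the ceramide synthase of very long acyl chains needed for the skin barrier, at 19.6 ± 6.40 FPKM in BPB, 5.41 ± 6.55 FPKM in BPAF and 1.26 ± 1.07 FPKM in control (adjusted p = 0.0397 in limma). Of 13 desmosome and junction genes 7 were tested and 0 were called, with a median of -0.30; the most abundant, Perp, had 103 ± 9.52 FPKM in BPB, 59.9 ± 37.9 FPKM in BPAF and 81.7 ± 37.4 FPKM in control. In all 6 lists, 0 genes were called in BPAF against control and in BPAF against BPB. With no filter on low values, Krt4, Zfp750, Tgm1 and Tmprss11d stayed called in BPB against control, and Krt15, Trp63, Grhl3, Sox15, Cers3 and Tmprss11e were lost. The calls also rest on single libraries: of the called genes of these lists, none passed without BPB 2, BPB 3, control 1 or control 3, Krt4, Zfp750 and Tmprss11d passed without BPB 1, and Tmprss11d passed without control 2. Without BPAF 2, a library outside the comparison, Grhl3 was lost and Tmprss11g added. Leaving out BPAF 3 lost Tmprss11e and added Grhl1. Without BPAF 1 alone the calls were as with all libraries, except that Grhl1 was added and Tmprss11e lost. Krt4, Krt15, Cers3 and 5 transcription factors were then also called lower in BPAF than in BPB. BPAF 1 was the BPAF library highest in these genes, so leaving it out cannot test that difference. Tgm1 and Tmprss11e were not tested where a control was left out. Without BPAF 1 and control 3 together, a choice made after the values were seen, Krt5 and Grhl1 were added in BPB against control to the calls made with all libraries, Tmprss11e and Tgm1 were no longer among them, and the other 8 were.

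Most markers of another epithelium moved with Ivl. Of 12 genes of the urothelium, the lining of the urinary tract, 11 were tested. In BPB against control 9 rose, with 0 lower, where 2.05% of all genes tested were called higher. The tested genes not called were Psca and Krt20 (adjusted p of 0.0534 and 0.518 in limma). Krt20 had 25.2 and 22.2 FPKM in control 1 and control 2, beside 22.3 FPKM in BPB 1. The FPKM of the 12 genes summed to 1951, 2829 and 3196 in BPB, to 1782, 54.2 and 108 in BPAF, and to 65.2, 46.4 and 37.7 in control. Tmprss2 gave 43.0 and 91.5 FPKM of the sums in BPAF 2 and BPAF 3. It had 100 FPKM in BPB 1 and 33.9, 17.3 and 25.8 FPKM in control 1 to 3. Tmprss2 was thus called higher in BPB without following the split seen for Ivl. Upk3a, a uroplakin of the urothelial surface, had 335, 484 and 547 FPKM in BPB and 323 FPKM in BPAF 1; BPAF 2, BPAF 3 and all 3 controls were listed at 0. Of 6 muscle or mesenchyme genes listed for the lower urinary tract 5 rose. The 6 summed to 249, 259 and 227 FPKM in BPB, 125, 1.88 and 106 FPKM in BPAF, and 22.8, 25.7 and 23.8 FPKM in control. The list does not single out that tissue: Casq2, called higher, also had 3.23, 2.51 and 2.37 FPKM in control 1 to 3. Car3, the gene not called, gave 105 FPKM of the sum in BPAF 3, and without it the sums were 103, 167 and 211 FPKM in BPB, 21.95, 1.80 and 1.07 FPKM in BPAF, and 3.70, 3.07 and 2.81 FPKM in control. Of these genes Pitx1, Chrm2, Casq2 and Myh2 were also called lower in BPAF than in BPB, and with no filter Chrm2 and Myh2 were. Chrm2 and Myh2 reached 1 FPKM in the BPB libraries alone, so they entered the test only through the group in which they were high. Pitx1 and P2rx1, and the urothelial Upk2, Upk3a, Snx31, Gata3 and Foxa1, reached it in BPB and BPAF 1 only. The 5 lower tract calls against control became 0 without BPB 2, BPB 3 or control 1, 2 without BPB 1 and 4 without control 2 or control 3. The urothelial calls were 0 without BPB 2, BPB 3 or any 1 control library, 3 without BPB 1, 9 without BPAF 2 and 10 without BPAF 1 or BPAF 3. With no filter 2 urothelial genes (Gata3 and Tmprss2) and 4 of the lower tract were called. The other 7 urothelial genes called with the filter then had adjusted p of 0.0549 to 0.0881 in limma. The 4 libraries with high Ivl were thus the 4 with high uroplakins, and Krt5, Trp63 and Grhl3 are also known from urothelium. The part of these cells in the result was not tested.

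Markers of cornified vaginal or epidermal epithelium were low. Of 10 such genes 9 were in the files and 1 was tested, with 0 called, and their FPKM summed to 4.74, 5.14 and 4.78 in BPB, 3.97, 1.98 and 2.74 in BPAF, and 1.73, 2.00 and 5.10 in control. Krt10, the tested gene, made up much of these sums, with 4.28 FPKM in control 3, and Krt78, described above, is also on this list. Flg2 and Lce1a1, which mark the cornified layers of skin, were at 0 in all 9 libraries. The 8 genes of hair keratins were all under 1 FPKM, with sums of at most 0.541. Of 12 uterine epithelial genes and 10 of uterine stroma and muscle 0 were called in BPB. The epithelial genes summed to 1009, 1611 and 2190 FPKM in BPB, 1695, 1669 and 6483 FPKM in BPAF, and 2351, 1420 and 1483 FPKM in control. Prss29, a uterine gland protease, gave 5817 FPKM of the sum in BPAF 3 and 1073 FPKM of that in BPB 3, and without it these were 666 and 1117 FPKM, the sum in BPAF 3 then being the lowest of the 9. Those of stroma and muscle summed to 4232, 5252 and 6491 FPKM in BPB, 1950, 2005 and 815 FPKM in BPAF, and 2830, 3643 and 1939 FPKM in control. Most of these sums came from the muscle genes Acta2, Myh11, Des and Cnn1, with Acta2 at 2311, 2766 and 3146 FPKM in BPB. In BPB against control Hoxa10, Hoxa11 and Hand2 had log2 differences of 1.24, 0.98 and 1.38. Those of Esr1, Pgr and Vim were -0.68, -1.71 and -0.007. Pgr was not called (adjusted p = 0.0672 in limma), but was called lower without BPAF 2. The 6 neutrophil genes summed to 2.29, 0.105 and 0 FPKM in BPB, 1.17, 0 and 0.076 FPKM in BPAF, and 17.2, 8.73 and 3.90 FPKM in control. The 1 tested, S100a9, was not called (adjusted p = 0.0575 in limma), but was called lower in BPB without BPB 1, and S100a8, under the level for testing, had an adjusted p of 0.0256 in limma with no filter. The part of these cells in the values of Dsg3, Tgm1 and the proteases was not tested.

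**Figure D4:**
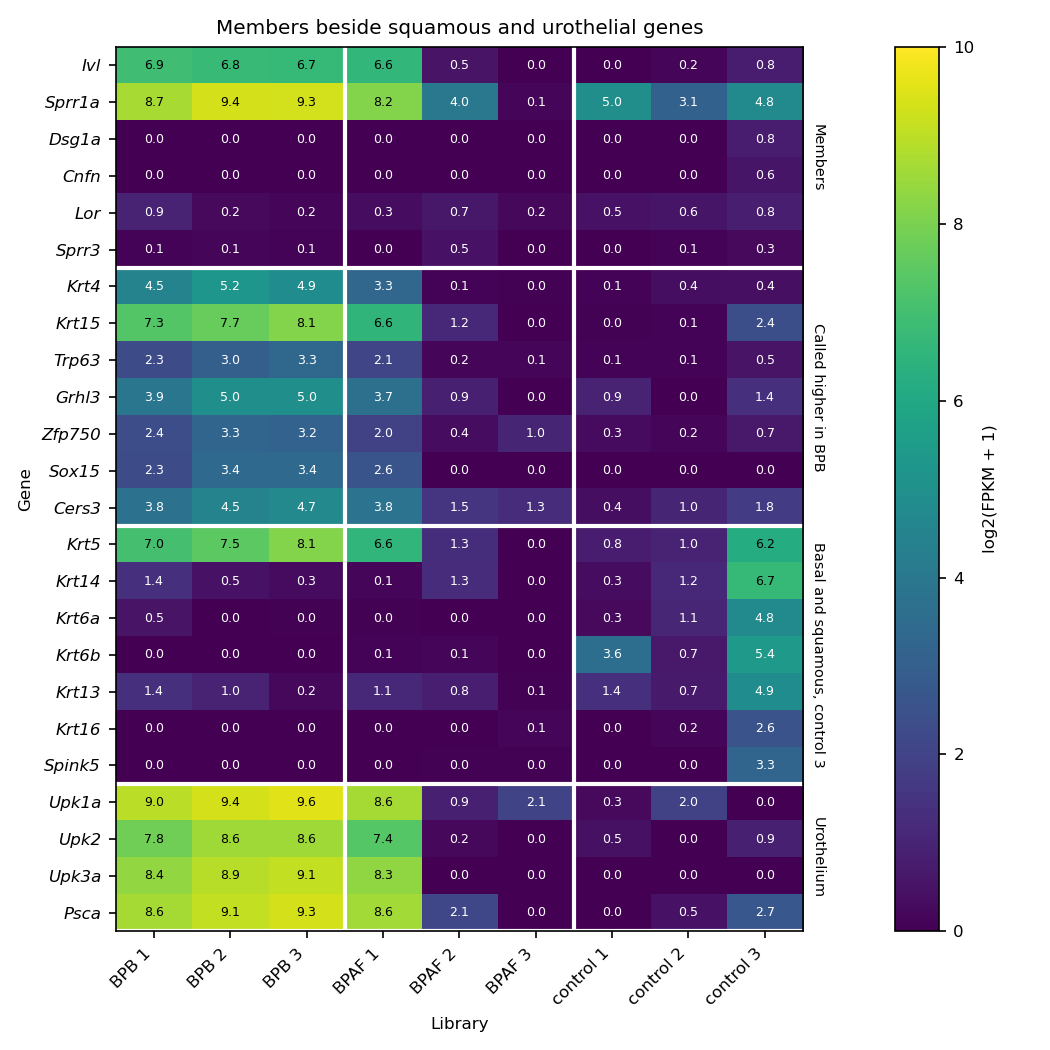
log2(FPKM + 1) by library of 6 of the genes beside genes called higher in BPB, basal and squamous genes, and urothelial genes. Those called higher are squamous regulators, keratins and the lipid enzyme Cers3. The basal and squamous genes are highest in control 3, except Krt5, which is highest in BPB 3. Ivl, Sprr1a, Krt15, the regulators and the uroplakins share the columns BPB 1 to 3 and BPAF 1, whereas Krt14, Krt6a, Krt13 and Spink5 are bright in control 3.

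The genes most like each member over the 9 libraries were ranked by Pearson's r of log2(FPKM + 1), as a description. Ivl had the closest company: Sptssb (r = 0.998), Lmo1 (r = 0.997) and Enho (r = 0.996), and 113 tested genes had an r over 0.95 with it. These values mainly restate the split of 4 high and 5 low libraries, which all such genes share. Sptssb, a subunit of the enzyme that starts sphingolipid synthesis, had 264, 167 and 209 FPKM in BPB, 189, 0.111 and 0.0302 FPKM in BPAF, and 0, 0 and 1.28 FPKM in control. Sprr1a was nearest to Rab27b (r = 0.985), Nqo1 (r = 0.975) and 1700096K18Rik (r = 0.968), with 8 genes over 0.95. Nqo1, a quinone reductase of the oxidative stress response, had 28.7, 72.7 and 66.2 FPKM in BPB, 30.4, 9.92 and 1.40 FPKM in BPAF, and 7.81, 4.04 and 12.3 FPKM in control, and like Sprr1a it had signal in the controls and its lowest value in BPAF 3. Sbsn was nearest to Dnajc18 (r = 0.961), Tenm3 (r = 0.960) and Dmxl2 (r = 0.959), and Krtdap to 6330418K02Rik (r = 0.920), Arpp19 (r = 0.894) and Yjefn3 (r = 0.890).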

How the data were processed

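Poly(A) RNA of the uterus was sequenced from a stranded mRNA kit, per the labels' protocols, in 9 libraries, 3 each of BPB, BPAF and control, grouped by title. The authors deposited 1 value per symbol and library, with no unit in the file headers. These deposited values were read as FPKM, fragments scaled by the authors to transcript length and library size, since 89.4 to 92.1% of the low values checked lay within 0.01 of whole reads once multiplied by GENCODE M21 transcript length. How reads were aligned and counted, and the build, is not given in the sources used here. RefSeq served for gene order and promoters only. Of 34745 lines per file, 126 with a repeated symbol were left out. Reads of a member were recovered where a transcript length gave whole reads in all libraries, and no count test was run. For Cnfn, Sbsn, Krtdap and Dsg3 no length did so.

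The 13743 genes with at least 1 FPKM in 3 or more libraries entered limma 3.58.1 (R 4.3.3), with trend and robust estimation, as log2(FPKM + 1), which understates changes of low genes, in a single model of the 9 libraries with group as its term. P-values were two-sided, with Benjamini-Hochberg adjustment across the tested genes, and a gene was called below an adjusted p of 0.05. The 3 comparisons share libraries. The members and the gene lists were chosen with earlier results of these data known. Named beside the members were called genes of each list (at most 4 per direction by smallest p), the most abundant genes where none was called, and the 3 genes with the highest r. Ppl, Klf4, Elf3, Car3, Prss29, S100a8, S100a9, Psca, further marker genes, the keratins not called and the Sprr2 genes were chosen after their values were seen. The procedure was tested on simulated data in which each gene had the same normal spread in all groups. Ivl and Sprr1a were split within BPAF, so the simulation does not cover their calls. Alternatives were other filters and pseudocounts, limma without trend or robust estimation, scaling by median ratios or equal sums, a replicate block, the 6 compared libraries only, and leaving out each library.

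Replicate numbers were checked for pairing. Deviations of same-numbered BPB and BPAF libraries from their group means correlated at 0.343, 0.339 and 0.484, and those of differently numbered ones at -0.337 to -0.0721. BPB and control libraries with different numbers reached 0.448, 0.372 and 0.335. Correlations of this size thus do not show that a shared number marks a pair, and the labels name no shared batch. The main fit left the numbers out, and the replicate block used them as an alternative. With the replicate block the count called in BPAF against BPB was 0 of all genes, against 33 without it, and 0 of the 10 members either way. BPB and control libraries with the same number correlated at -0.371, -0.127 and -0.399, and BPAF and control at -0.159, -0.079 and -0.247, so those were not taken as pairs.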

Additional observations from a re-analysis of the deposited data

How the results depend on the processing

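For the 10 genes in BPB against control, the single call (Ivl) was lost with no filter, a filter at 0.1 FPKM, a pseudocount of 0.1 or 0.01, scaling by median ratios and the replicate block (0 called, adjusted p of 0.0903, 0.0563, 0.0707, 0.113, 0.0545 and 0.0783 in limma), and 2 were called with only the 6 libraries of the comparison, with or without a replicate block. Leaving out 1 library gave 0 to 2. Of all genes, 351 in the main analysis became 163 with no filter, 152 and 66 with pseudocounts of 0.1 and 0.01, 201 with equal sums, 19 with the replicate block, 774 at an adjusted p under 0.1, and 0 to 436 with 1 library left out. With scaling by median ratios the median over all genes was -0.0606 on the log2 scale, beside 0.151, and the split was 198 higher and 112 lower, beside 282 and 69. In BPAF against control, 3 became 1 with equal sums, 0 with the replicate block, 0 with only the 6 libraries with or without a block, 0 without BPAF 1 and control 3 together (both chosen after the values were seen), and 0 to 2 with 1 library left out. In BPAF against BPB, 33 became 11 with no filter, 0 with either smaller pseudocount, 8 with equal sums, 0 with the replicate block, 0 with only the 6 libraries with or without a block, 66 at an adjusted p under 0.1, 239 without BPAF 1 and control 3 together, and 0 to 237 with 1 library left out; of the 10 genes, 2 were called without BPAF 1 and control 3 together and 0 to 2 with 1 library left out. Among the 4 tested genes, directions turned only for differences that were not called, when 1 library was left out: in BPAF against control Ivl spanned -0.061 to 3.26, Sprr1a -2.22 to 1.79, Sbsn -0.085 to 0.59 and Krtdap -0.36 to 0.29, and in BPB against control Krtdap -0.0045 to 0.55. Of the untested genes, Sprr3 turned in all 3 comparisons, Lor in BPAF against BPB (-0.19 to 0.20) and Dsg1a in BPAF against control (-0.38 to 0.013). The causes were not tested. The reads behind Cnfn, Sbsn, Krtdap and Dsg3 were not recovered, so the depth behind their values is unknown.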
